A study of Mus musculus with 6 samples.

Results

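Long intergenic noncoding RNA loci on a mouse expression array were examined in brain synaptosomes of a knock-in and a wild-type group. The members were all non-control features named in the scanner files by a genomic locus and a strand (chromosome, start, end, then F or R), and no measured value was used to choose them. There were 16181 such 60-base targets among the 55681 different targets of the array. They covered 3540 loci on 20 chromosomes, or 4607 loci when each strand is counted by itself, with a median of 3 and at most 10 targets per locus and strand. For 1067 loci both strands were targeted, 8171 targets reading the forward strand and 8010 the reverse strand. A locus had a median length of 7316 bases, and 45.7% of the strand-specific loci overlapped another locus of the same strand, so that targets under different names can read the same RNA.

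Total RNA from mouse brain synaptosomes was hybridised to 6 one-colour Agilent arrays, 3 of the knock-in group (KI) and 3 of the wild-type group (WT). Synaptosomes are pinched-off nerve terminals that are isolated from homogenised brain together with pieces of the postsynaptic membrane. The sample names and the series design call the first group knock-in, whereas the genotype field of the same samples reads knock-out. The labels name neither the allele nor the strain, age or sex of the mice, and the series title is concerned with FMR1 and the tremor/ataxia syndrome FXTAS. The question asked here is which intergenic RNAs differed between these synaptosome preparations. The labels do not say that the samples came from separate mice, so that p-values cover the variation among these 6 preparations and no more, and that variation may be technical.

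Long noncoding RNAs are transcripts without a protein product, and the intergenic kind is made from its own locus between protein-coding genes. Many are spliced and polyadenylated like messenger RNAs but are on average less abundant, and many stay in the nucleus, where some bind chromatin or hold nuclear bodies together. Others are exported, and in neurons a few are known at dendrites and synapses. Transcription from opposite strands of one locus gives antisense RNAs, which an array can tell apart only when each strand has its own target. All positions below are on mouse build mm9 as annotated by the array.

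The sequences that carry the main results are shown here as 30-base windows, 5′ to 3′, taken from the target sequences that the scanner files list. Each pair below comes from 1 locus and covers the same bases on opposite strands, and capitals mark the strand whose target was well above background on at least 3 arrays. The first pair, at chr3:58124899-58124928, holds the only lincRNA target that passed the test between the groups. That target entered the test through its marks on the KI arrays alone, and its call was lost under several alternatives given below.
Chromosome 3, forward: TCTGTCATTACAGCTGCTTGGCTACGTACT
Chromosome 3, reverse: agtacgtagccaagcagctgtaatgacaga
The next pair, at chr5:35976940-35976969, lies in the locus with the highest signal on its dimmer strand.
Chromosome 5, forward: TGTGATGGCCCTGAAGTAAGAACCAGATGT
Chromosome 5, reverse: ACATCTGGTTCTTACTTCAGGGCCATCACA
The last pair, at chr4:141532848-141532877, had a bright and a dark strand.
Chromosome 4, forward: TTTCAATTATATTCTCCTCAGACCCCTTAT
Chromosome 4, reverse: ataaggggtctgaggagaatataattgaaa

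Fewer lincRNA targets than gene targets gave signal. Agilent's well-above-background mark is set for each spot by comparison with its local background, and a target was kept when it carried the mark on at least 3 of the 6 arrays. Of the 16181 lincRNA targets, 4668 were kept (28.8%), from 1909 of the 3540 loci. Of 26536 targets with an NM accession, the RefSeq class for messenger RNAs, 72.3% were kept, and of 1216 with an NR accession, the class for curated noncoding RNAs, 44.2%. All 6 arrays gave the mark for 3825 lincRNA targets (23.6%), and none gave it for 9617 (59.4%). The remaining 2739 (16.9%) were marked on 1 to 5 arrays, against 8.83% of the NM targets. The share marked per array ran from 27.9% on WT1 and 28.2% on WT2 through 29.4% on KI1 and 29.9% on both KI2 and WT3 to 31.9% on KI3. WT1 and WT2 were hybridised on slide 2 and the other 4 arrays on slide 1. Their 75th percentiles of intensity were 578 and 580, against 823 on WT3 and 883 to 910 on the KI arrays, so the 2 dimmest arrays were both wild type.

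The kept lincRNA targets were also dimmer. Signal is given as log2 of the processed intensity minus the array's 75th percentile, so that 0 is that percentile, and the brightness of targets of different sequence is not an amount of RNA. The median over the 6-array means was -2.96 for the kept lincRNA targets and 0.33 for the kept NM targets, while kept NR targets lay between them at -1.81. The median lincRNA level exceeded only 15.8% of the kept NM targets. At the upper end the classes overlapped: 737 lincRNA targets lay above the 75th percentile of the array, 4.55% of all members against 38.8% of all NM targets, and the brightest lincRNA target, at 8.07 compared with 9.16 for the brightest NM target.

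**Figure D1:**
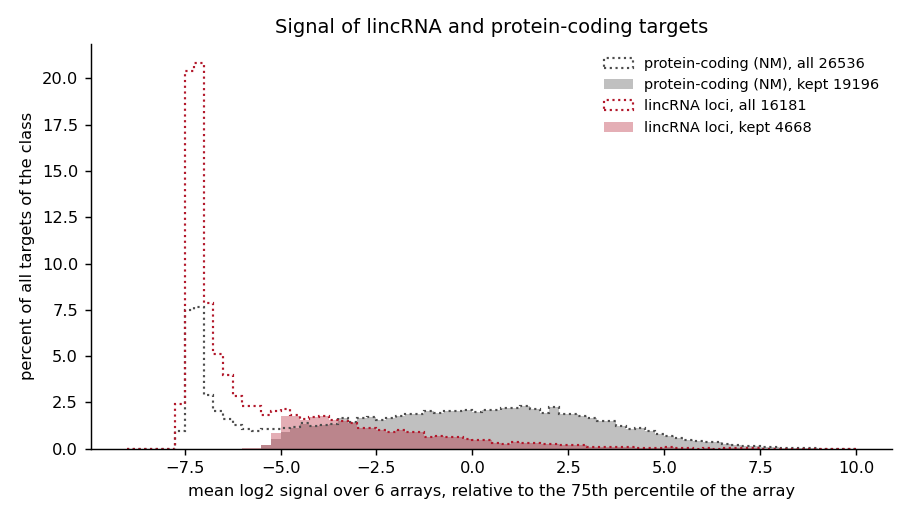
Histogram of the mean log2 signal over 6 arrays, relative to each array's 75th percentile (x axis), as the percent of all targets of the class (y axis), for lincRNA loci (red) and NM targets (grey); dotted lines are all targets and filled areas the kept ones. Most lincRNA targets sit in the narrow peak near -7, and the 4668 kept ones have a median of -2.96 against 0.33 for the NM targets.

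The 10 brightest lincRNA targets differed little between arrays. The target at chr6:83406215-83406274, in a locus that holds the noncoding gene B230319C09Rik on the same strand, read 7.64, 7.66 and 7.80 on KI and 7.93, 7.85 and 7.91 on WT arrays. Norad, a cytoplasmic noncoding RNA that binds Pumilio proteins, lies inside the reverse-strand locus chr2:156213798-156216885, whose brightest target read 7.12, 7.16 and 7.13 on KI and 7.19, 7.01 and 7.10 on WT arrays. That locus had all 3 of its targets kept, with KI minus WT differences from -0.05 to 0.04. The forward-strand locus chr17:39982023-39983277, with a target at 7.07, ends 1781 bases from the target for Rn18s, the 18S ribosomal RNA, on the same strand. Another 6 of the 10, on chromosomes 4, 6, 11, 12, 14 and 17, had means between 6.85 and 7.50. None of the 10 passed the test between the groups, and their unadjusted p-values in limma's moderated test ran from 0.0391 to 0.813. The targets at chr4:141532840-141532899, chr6:83406215-83406274 and chr12:73862326-73862385 were lower in KI without overlap, with differences of -0.35, -0.20 and -0.25. In the others described here the groups overlapped.

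Base content was uneven among these bright targets. GC content exceeded 70% in 5 of the 10, as it did in 136 of all 16181 lincRNA targets. The 30-base windows below come from 1 of these 5 and from the Norad locus, and capitals mark the CG pairs, of which the first window has 3 and the other 0.
Chromosome 17, 39983233 to 39983262, beside Rn18s: cctctctCGCGctctctgtccCGcctggtc
Chromosome 2, 156214198 to 156214227, Norad locus: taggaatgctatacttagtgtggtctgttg
The share of targets kept moved with GC content in both classes. It rose from 15.5% of 317 lincRNA targets with at most 30% GC to 73.4% of the 338 with over 60%, and from 61.9% to 87.7% of the NM targets. Within every band of GC content the lincRNA share was the lower one. The median GC content was 45% for lincRNA targets and 41.7% for NM targets.

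Where a locus lay relative to named genes went with how often it was detected. Of 1189 targets in the 328 strand-specific loci that hold a target of a named gene on the same strand, 48.6% were kept. In the 212 loci that hold one on the other strand only, 26.5% of 1086 targets were kept. A named target of the same strand within 10 kb outside the locus went with 38.3% of 2603 targets, and a nearest named target more than 50 kb away with 23.2% of 4350. By position along the locus, the share kept was 32.8% in the first of 5 equal segments from the 5′ end, over loci of at least 1 kb, 27.3% in the fourth, the lowest, and 29.8% in the last, which held 5560 targets. Forward and reverse targets were kept equally often, at 28.6% and 29.1%.

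Targets of 1 locus did not read alike. Of the 2295 strand-specific loci with a kept target, 1131 had exactly 1, and 680 had at least 3. In those 680 the levels of the kept targets spanned a median of 1.89 log2 units. The median SD within a locus was 0.92 for the levels and 0.18 for the KI minus WT differences.

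Of the 1067 loci targeted on both strands, a kept target was found on both strands of 386, on the forward strand alone of 230, on the reverse strand alone of 221, and on neither strand of 230. A stricter view takes targets of opposite strands that share at least 30 bases, of which there were 1582 pairs with a median of 47 shared bases, in 664 loci. Both members of the pair were kept in 139 pairs (8.79%), exactly 1 in 584 (36.9%) and neither in 859 (54.3%). In 478 of the 584 one-strand pairs the silent strand was marked on none of the 6 arrays.

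Among the 139 pairs with both strands kept, the strands differed by a median of 2.44 log2 units within the array, 59 pairs by more than 3 and 30 by less than 1. The forward strand was the brighter in 74. The highest signal on both strands came from chr5:35975265-35982561, whose nearest named gene is Acox3, an enzyme of branched-chain fatty acid oxidation, 18991 bases away. Its forward target read 4.98, 5.24 and 5.12 on KI and 5.83, 4.69 and 5.27 on WT arrays, and its reverse target 4.37, 4.21 and 4.48 on KI and 4.33, 5.04 and 4.45 on WT arrays. The forward strand was the brighter on every array except WT2. The next in this order was chr12:119825125-119850750, at 4.93 forward and 4.12 reverse, where the shared bases are rich in GA repeats on the forward strand.
Chromosome 12, 119841366 to 119841395, forward: GCAGGAAGAAGAGAGAGAGAGGAGAGATAA
At chr12:110003268-110030953, 23829 bases from Yy1, a zinc finger transcription factor, the forward target averaged 3.55 and the reverse 1.63. The locus chr5:34696192-34722842, 651 bases from the ubiquitin ligase Rnf4, read 1.42 and 2.40. At chr14:115423660-115463160, which holds Mir17hg, the host transcript of a microRNA cluster, the strands read 1.31 and 0.65. The last of the 6, chr15:102947390-102971082, read -0.82 and -0.72.

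In other pairs only 1 strand was bright. Targets of opposite strands differ in sequence, so their levels are set side by side without a fold. The forward target of the pair at chr4:141527564-141547339, 39699 bases from Tmem51, read 6.84, 6.85 and 6.97 on KI and 7.23, 7.45 and 7.04 on WT arrays, and is itself among the 10 brightest lincRNA targets. Over the same bases the reverse target read -5.66, -6.55 and -7.21 on KI and -6.04, -5.46 and -6.30 on WT arrays, and was marked on none. At chr11:97275905-97310538, near the cytokine signalling inhibitor Socs7, the forward strand averaged 4.82 and the reverse, marked on no array, -7.21. The reverse strand was the bright one at chr13:73472571-73483846, at a mean of 4.33, at chr1:182686731-182709331, at 4.75, and at chr4:123572090-123581365, at 4.19, and no array marked the forward strand of these 3. At chr2:168804720-168854970 the reverse strand averaged 5.69 and the forward strand, marked on 4 arrays, -4.91.

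**Figure D2:**
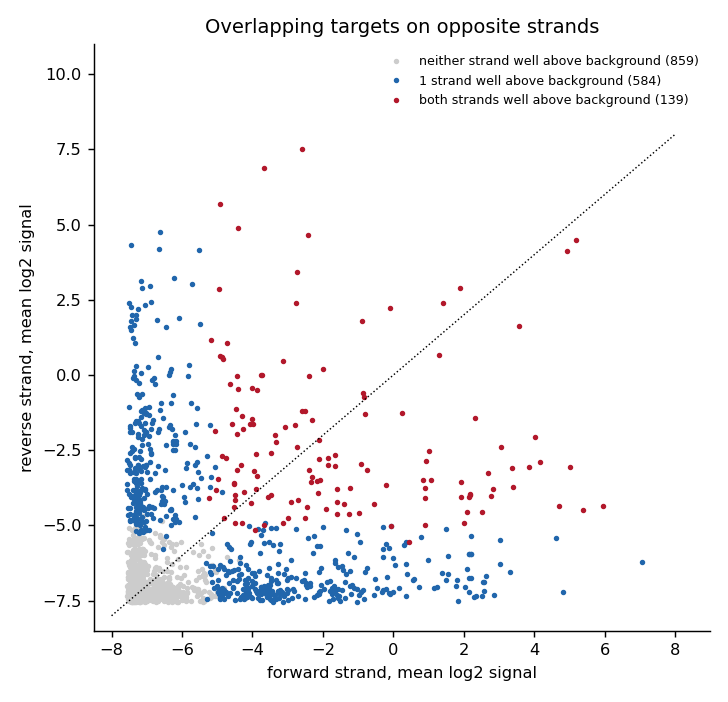
Mean log2 signal over 6 arrays of the forward target (x axis) against the reverse target (y axis) for the 1582 pairs that share at least 30 bases, coloured by whether neither (grey, 859), 1 (blue, 584) or both strands (red, 139) were kept; the dotted line marks equal signal. Points lie along both axes, and few red points lie near the line.

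No change in the balance of the strands passed the test between the groups. In limma's moderated test of forward minus reverse, 0 of the 139 pairs passed an adjusted p of 0.05 (0% of the pairs tested), the lowest adjusted p was 0.389, and 15 had an unadjusted p under 0.05. Groups did not overlap in 32 pairs (23%), 12 with the difference higher and 20 with it lower in KI. Of the named pairs the lowest p was that of chr2:168804720-168854970, with a KI minus WT change of -0.97 in the strand difference (SE 0.32, unadjusted p = 0.0182, adjusted p = 0.389, limma, 3 arrays per group). There the forward target read -5.02, -5.65 and -5.65 on KI and -4.17, -4.01 and -4.98 on WT arrays, near the edge of detection.

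Between the groups, 1 lincRNA target passed the test, and it entered the tested set through its marks on the KI arrays alone. The fit covered all 29318 kept targets of the array, of which 2 (0.00682%) had an adjusted p under 0.05, and 1 of these was among the 4668 lincRNA targets. Without the filter on dim targets the count was 0, and this target had an adjusted p of 0.103 by limma. Its 60 bases lie at chr3:58124895-58124954, in the forward-strand locus chr3:58118325-58136550, 129030 bases from Tsc22d2, the nearest named gene. It read -2.53, -2.85 and -3.52 on the KI arrays and -7.15, -7.09 and -7.36 on the WT arrays. All 3 KI arrays marked it as well above background and no WT array did, and the groups did not overlap. Because WT was not well above background, the size is given against the edge of detection. The KI mean was 4.31-fold above the mean of the lowest signals marked well above background on the WT arrays. The adjusted p of 0.0236 (limma, Benjamini-Hochberg, n = 3 per group) belongs to the KI minus WT difference and not to this bound. The WT values in that difference lay below the edge of detection, so their spread is not that of a detected RNA. This bound and those below compare group means and hold only for the processed intensities used here, not for other background corrections.

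Neighbouring targets did not show the same. The forward target directly before it, at chr3:58124835-58124894, read -6.73, -7.23 and -7.01 on KI and -7.03, -6.91 and -7.18 on WT arrays. The next forward target, at chr3:58124973-58125032, read -4.85, -6.13 and -6.45 on KI and -6.05, -7.05 and -7.32 on WT arrays, and was marked on 1 KI array. The reverse target over its own first 38 bases, printed above, read between -7.36 and -6.83 on all 6 arrays. Across the 10 targets of both strands, only the called one was kept. Its call was lost when any of KI1, KI2, WT1, WT2 or WT3 was left out, with adjusted p from 0.0626 to 0.170, and held without KI3, at 0.0147. It was also lost with the slide as a block, which compares KI with WT3 on slide 1, with an adjusted p of 0.0871, with normexp background correction (0.229), in the authors' value table (0.158) and with the replicate number as a block (0.202). The log2 difference between the group means, 4.23 as measured, was 1.18 with normexp and 2.36 in the authors' table.

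A further 6 targets with higher values in KI are described because their groups did not overlap and their differences were among the largest with an unadjusted p under 0.05. None of them passed the adjusted test, and 5 of the 6 were marked on no WT array, so that they too were kept through the KI arrays alone. At chr16:29813006-29813065 the KI arrays read -3.89, -2.83 and -3.74 and the WT arrays -6.99, -6.92 and -6.68. No WT array marked the target, and the KI mean was 3.00-fold above the edge of detection on the WT arrays. The adjusted p of 0.0782 by limma is again that of the KI minus WT difference and not of the bound. The log2 difference between the group means, 3.38 as measured, was 0.64 with normexp and 1.73 in the authors' table. The locus is 142436 bases from Gm1968 and, on its own strand, 150358 bases from Opa1, a GTPase of mitochondrial inner membrane fusion, which differed by -0.02. A reverse target that shares part of this stretch read between -2.26 and -1.91 on all 6 arrays, with a difference of 0.02. The reverse target at chr14:19296255-19296314, 95511 bases from the ubiquitin-conjugating enzyme gene Ube2e2, read -4.92, -2.06 and -5.13 on KI and -7.01, -6.90 and -7.18 on WT arrays. KI2 stood far above KI1 and KI3 there.

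The other 4 lay nearer to background or were weaker. The target at chr1:85160879-85160938 read -4.20, -4.88 and -4.03 on KI and -7.10, -5.99 and -7.30 on WT arrays, and the other kept targets of that locus differed by 0.41 and 0.51 with overlapping groups. The reverse-strand locus chr4:35106125-35127700 lies 4890 bases from Ifnk, its nearest named gene, which is on the other strand. The nearest on its own strand, 10919 bases away, is C9orf72, the gene whose repeat expansion causes familial ALS and frontotemporal dementia. In this locus 1 of 4 targets was kept, which read -4.86, -5.13 and -4.11 on KI and -7.27, -7.14 and -6.09 on WT arrays. C9orf72 itself differed by 0.17, without overlap between the groups (adjusted p = 0.550 by limma). A forward target that partly overlaps it, at chr4:35111591-35111650, read between -0.79 and -0.62 on all 6 arrays. The target at chr7:80764171-80764230, 102916 bases from the chromatin remodeller gene Chd2, read -4.41, -4.59 and -4.07 on KI and -5.38, -7.02 and -6.70 on WT arrays. The neighbouring target at chr7:80764091-80764150 also separated the groups, at -2.85, -2.83 and -2.79 on KI and -3.42, -3.38 and -3.15 on WT arrays. Near Cplx2, a complexin that regulates SNARE-driven vesicle release, the target at chr13:54407387-54407446 read -2.03, -2.17 and -2.79 on KI and -5.02, -4.07 and -3.57 on WT arrays. Other kept targets of that locus and strand were lower in KI, by 0.52 and 0.86, with overlapping groups, and Cplx2 differed by -0.08.

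**Figure D3:**
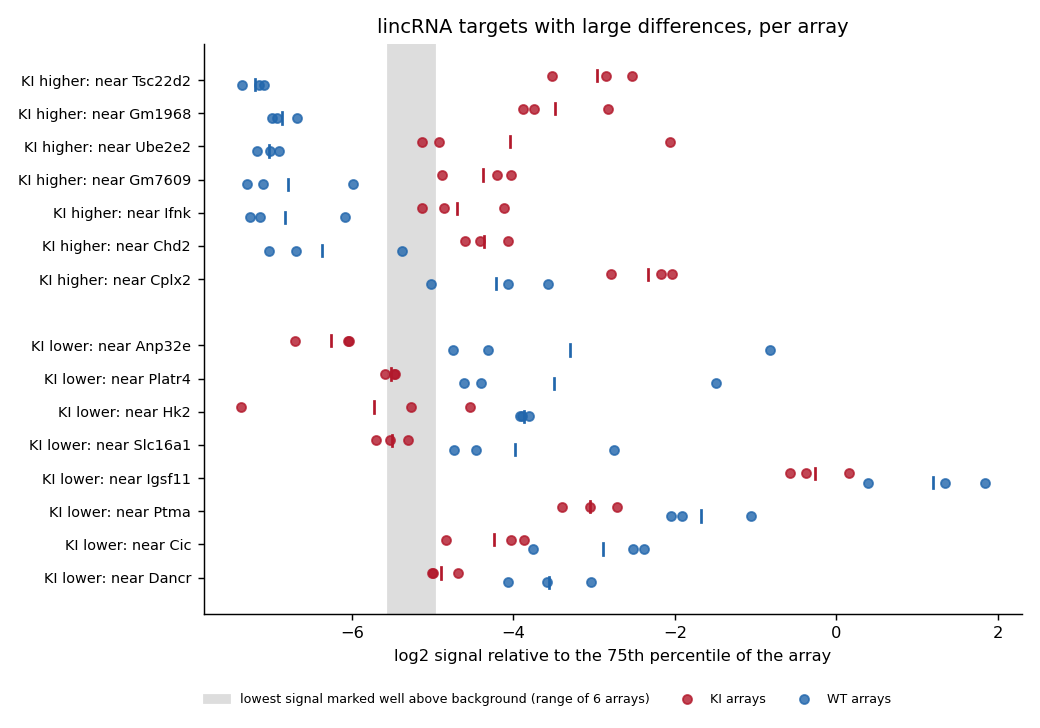
Log2 signal relative to the array's 75th percentile (x axis) of 7 lincRNA targets with large higher and 8 with large lower values in KI (rows, named by the nearest gene); points are arrays, red KI and blue WT, and short bars are group means, with the lowest signals marked well above background shaded. In 6 of the 7 upper rows the WT arrays sit at or below the shaded band, and WT3 is far from WT1 and WT2 in the first and second of the lower rows.

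Of the 8 targets named for lower values in KI, none passed the adjusted test, and WT3 was the highest array by far in the first and second. The reverse target at chr3:95754839-95754898, 4317 bases from the histone chaperone gene Anp32e, read -6.71, -6.04 and -6.05 on KI and -4.32, -4.74 and -0.83 on WT arrays. The one at chr3:41325296-41325355 read -5.48, -5.47 and -5.60 on KI and -4.40, -4.61 and -1.49 on WT arrays. No KI array marked either target, and the WT means lay 4.23-fold and 3.67-fold above the edge of detection on the KI arrays. Both means rest largely on WT3, since WT1 and WT2 lay far below it in both. The log2 differences, -2.97 and -2.02 as measured, were -1.73 and -1.01 without WT3. They were -1.57 and -1.23 with normexp and -1.69 and -1.19 in the authors' table. WT3 stood above all 5 other arrays by more than 2 log2 units in 14 lincRNA targets, KI1 did so in 12, KI2 in 10, and KI3, WT1 and WT2 in 2 each. The forward target at chr6:82637363-82637422, 6033 bases from the hexokinase gene Hk2, read -7.38, -5.27 and -4.54 on KI and -3.92, -3.81 and -3.90 on WT arrays. Another, 19851 bases from the lactate transporter gene Slc16a1, at chr3:104438388-104438447, was marked on no KI array and on all WT arrays, which read -4.73, -2.75 and -4.46.

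Others were well above background in both groups. The target at chr16:39984671-39984730, in a reverse-strand locus with no named gene within 957221 bases, read -0.37, -0.58 and 0.16 on KI and 1.35, 1.85 and 0.39 on WT arrays (difference -1.46, SE 0.39, adjusted p = 0.440 by limma). With the slide as a block, against WT3 alone, the difference was -0.66. The locus had 4 kept targets, of which only this one separated the groups. At chr1:88398204-88398263, 27444 bases from Ptma, the prothymosin alpha gene, KI read -3.39, -3.05 and -2.72 and WT -1.91, -2.05 and -1.06. At chr7:26057524-26057583, 15377 bases from the transcriptional repressor gene Cic, KI read -3.86, -4.83 and -4.03 and WT -2.51, -2.38 and -3.76.

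The locus of Dancr, a noncoding RNA known for keeping progenitor cells undifferentiated, was covered densely on both strands. It spans chr5:74487385-74497428, with 10 targets on each strand, and Dancr's own target lies inside it on the forward strand. Of the forward targets, 9 were kept, and all 9 were lower in KI, by 0.28 to 0.76, with no overlap between the groups in 5. Dancr's own target read -1.40, -1.43 and -1.51 on KI and -0.94, -0.83 and -1.10 on WT arrays (difference -0.49, SE 0.11, unadjusted p = 0.00395, adjusted p = 0.431 by limma). On the reverse strand 5 targets were kept. The target at chr5:74489558-74489617 read -4.99, -4.68 and -5.01 on KI and -3.58, -3.04 and -4.06 on WT arrays, a difference of -1.33 (SE 0.26, adjusted p = 0.423 by limma). It was -0.83 with the slide as a block, -0.72 with normexp and -0.76 in the authors' table. The reverse target that overlaps it differed by -1.30. The one at chr5:74489478-74489537 was higher in KI, with unadjusted p = 0.0846 and adjusted p = 0.508 by limma. It was kept through the KI arrays alone, and its KI mean was 1.22-fold above the edge of detection on the WT arrays. Targets that overlap share sequence and are no separate evidence of each other.

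More lincRNA targets lay lower than higher in KI. The groups did not overlap in 233 targets that were higher in KI (4.99% of the 4668, against 7.93% of all kept targets) and in 707 that were lower (15.1%, against 12% of all). With background corrected by normexp instead, the split was 104 higher and 1739 lower, 39.5% of the lincRNA targets in all against 26.3% of all kept targets, where these shares were 20.1% and 19.9% before. The lincRNA targets are the dimmer ones, and these shares are not matched for signal. An unadjusted p under 0.05 was found for 650 lincRNA targets (13.9%, against 10.4% of all), 152 higher and 498 lower. The median difference was -0.10 log2 units over lincRNA targets and -0.05 over all kept targets, and 64.9% of the lincRNA targets had a negative difference.

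The sizes are small beside the spread between arrays. Taken as the deviation from each target's mean, the median lincRNA target was at -0.10, -0.08 and 0.00 on KI1, KI2 and KI3, and at -0.00, 0.10 and 0.06 on WT1, WT2 and WT3. KI3 lay above WT1, so the groups overlapped. Among NM targets the same medians ran from -0.03 on KI1 to 0.06 on WT2. Other targets without an NM accession shared the direction: the median difference was -0.13 over 537 NR targets and -0.09 over 4917 targets under other names, against -0.03 over 19196 NM targets. Their shares lower in KI without overlap were 17.5%, 14.3% and 10.4%. Whether lincRNA targets differ from these classes was not tested.

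The median was negative at every level of signal. In 7 bands of mean signal the lincRNA median difference ran from -0.14 to -0.08, while that of all other targets ran from -0.09 to 0.00. Between -1 and 0, for example, it was -0.09 over 405 lincRNA targets and 0.00 over 2544 others. With the slide as a block, that is against WT3 alone, the lincRNA medians lay between -0.13 and -0.08 and those of the others between -0.04 and 0.03. In the authors' value table the lincRNA medians lay between -0.08 and -0.02. With normexp they ran from -0.29 in the band under -4 to -0.07 in the band over 2. Those of the others were -0.28 and -0.03 in the same bands, and 0.02 between 0 and 2. For RNAs listed as held in the nucleus, the mean deviation of Malat1, Neat1 and Meg3, which were the 3 of 4 listed with a kept target, was 0.22, 0.09 and -0.16 on KI1 to KI3 and -0.08, 0.18 and -0.26 on WT1 to WT3. Oligodendrocyte markers averaged 0.17, 0.40 and -0.04 on KI and 0.19, -0.60 and -0.12 on WT arrays, with overlapping groups. Red blood cell markers, 2 of 3 kept, averaged 0.78, 0.12 and -0.04 on KI and -0.55, -0.14 and -0.17 on WT arrays, without overlap. The part of these cell types in the shift was not tested.

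**Figure D4:**
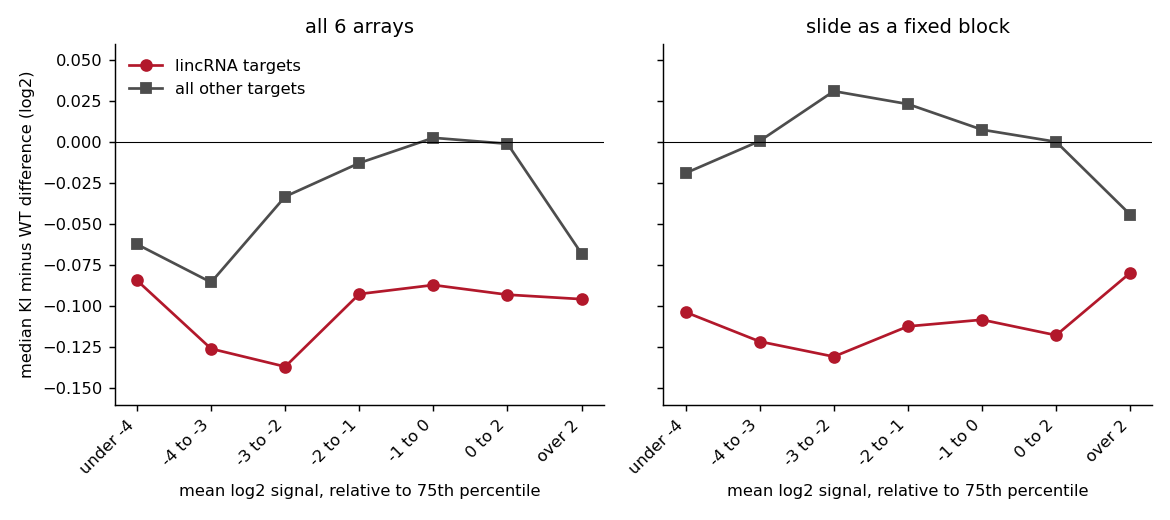
Median KI minus WT difference in log2 units (y axis) by band of mean log2 signal (x axis) for lincRNA targets (red circles) and all other kept targets (grey squares), over all 6 arrays (left) and with the slide as a fixed block (right). The red points lie below the grey ones in all 7 bands of both panels, between -0.14 and -0.08 in the left one.

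Some loci had several targets that all separated the groups, and they are given here as a description, since they were chosen after their values were seen. Of the 680 strand-specific loci with at least 3 kept targets, all kept targets were without overlap and of 1 direction in 16, of which 10 were lower and 6 higher in KI. No such count was made for other genes of the array, and targets of 1 locus can read the same RNA. Whether 16 is more than usual therefore cannot be said. No target in them passed the adjusted test. In the reverse-strand locus chr3:21964899-21974524, 133994 bases from Tbl1xr1, a transcriptional corepressor subunit, all 5 targets were lower in KI, by 0.74 to 0.99. Their mean was -0.45, -1.02 and -0.56 on KI and 0.10, 0.25 and 0.29 on WT arrays. The reverse-strand locus chr16:44717531-44724206, 12389 bases from Nepro, had 5 of 6 targets kept, with means of -2.02, -2.18 and -2.16 on KI and -1.46, -1.39 and -1.43 on WT arrays. Each group's arrays were close together there, and the mean difference was -0.69. At chr8:106592650-106603525, 64634 bases from the endothelial cadherin gene Cdh5, all 3 targets were lower by 0.83 to 1.01. The means were -2.29, -2.07 and -1.83 on KI and -1.56, -0.49 and -1.31 on WT arrays. The 3 endothelial markers followed in these libraries had mean deviations of 0.09, -0.21 and -0.37 on KI and -0.03, 0.41 and 0.11 on WT arrays, and their part in the values at this locus was not tested.

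Of the 6 loci that were higher, chr4:146507925-146532650 had the largest mean difference, 1.25 over 4 of 5 targets. Its means were -2.41, -2.24 and -3.22 on KI and -3.37, -4.48 and -3.77 on WT arrays. At chr16:46384974-46391331, on the same strand as and 3771 bases from Nectin3, a cell adhesion molecule of synaptic junctions, all 5 targets were higher, by 0.33 to 0.66, with means of -1.03, -0.89 and -1.01 on KI and -1.59, -1.68 and -1.27 on WT arrays.

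Tug1, an abundant noncoding RNA first described in the developing retina, lies inside 3 of the named loci, which overlap each other on the reverse strand of chromosome 11. In chr11:3538125-3554450 only 1 of 9 targets was kept, through the KI arrays alone. Its KI mean was 1.03-fold above the edge of detection on the WT arrays. In chr11:3539787-3548811 all 3 targets, which lie end to end at chr11:3540329-3540508, were higher in KI, by 0.49 to 0.68. Their means were 1.05, 1.03 and 0.67 on KI and 0.52, -0.18 and 0.57 on WT arrays. Tug1's own target, which shares bases with 1 of these, read 1.22, 1.26 and 0.88 on KI and 0.67, -0.25 and 0.67 on WT arrays (difference 0.76, SE 0.27, unadjusted p = 0.0300, adjusted p = 0.459 by limma). The 3 targets of chr11:3542140-3546888, a stretch inside the same gene region, went the other way. The brightest of them read -0.68, -1.37 and -1.15 on KI and 0.14, -0.31 and -1.25 on WT arrays, and the 3 had overlapping groups and differences of -0.65 to -0.53. Targets within the Tug1 region thus had opposite signs between the groups.

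**Figure D5:**
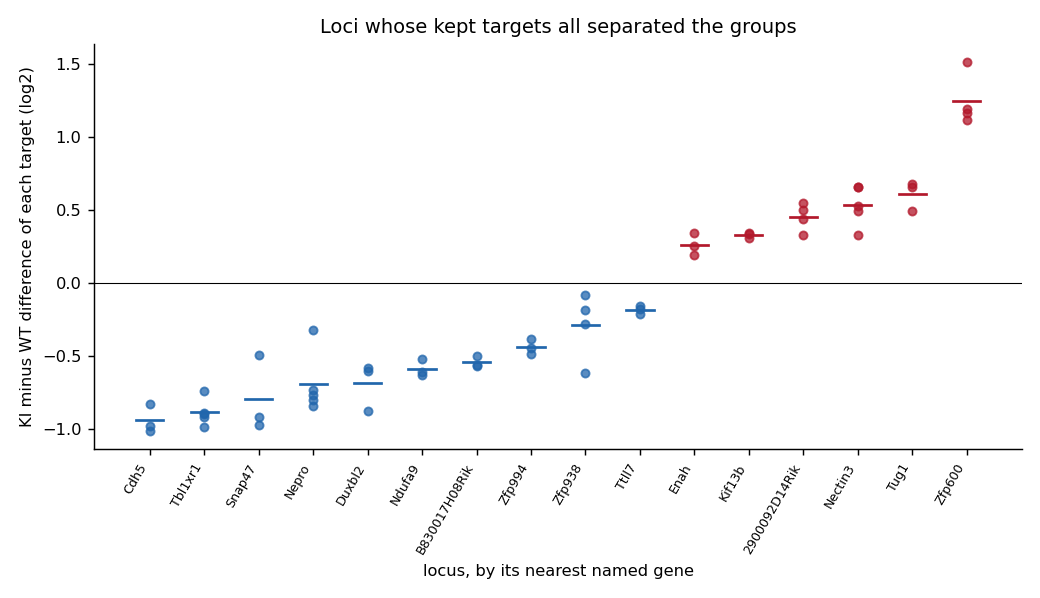
KI minus WT difference in log2 units (y axis) of each kept target (points) and their mean (bar) in the 16 loci with at least 3 kept targets that all separated the groups in 1 direction (x axis, by nearest named gene), red where higher and blue where lower in KI. The 10 lower loci have means down to -0.94 and the 6 higher ones up to 1.25.

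Detection itself also differed between arrays. A total of 33 lincRNA targets were marked on all 3 KI arrays and on no WT array (0.204% of the lincRNA targets, against 0.176% of all targets), and 7 the other way round (0.0433% against 0.0431%). There were 41 marked on KI2, KI3 and WT3 alone, which are the slide 1 arrays other than KI1 (0.253% against 0.163%). Another 28 were marked on KI1, KI3 and WT3 alone (0.173% against 0.119%), and 12 on KI1, KI2 and WT3 alone (0.0742% against 0.0503%). Among kept lincRNA targets, 74 (1.59%) spanned more than 3 log2 units across the 6 arrays, against 0.854% of the NM targets, and 17 of the 74 (23.0%) separated the groups, against 20.1% of all kept lincRNA targets. One example, chosen for its wide range, is the forward target at chr15:79764481-79809909, which read -7.41, -2.60 and -1.67 on KI and -7.12, -7.05 and -1.94 on WT arrays.

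The long noncoding RNAs that carry names of their own were tested in the same fit. Of 56 listed, 42 were on the array and 35 had a kept target, each represented by its brightest. None passed the adjusted test in limma, 4 had an unadjusted p under 0.05, 17 were higher and 18 lower in KI, and the median difference was -0.03. The list holds neither Norad, whose own target averaged 6.11, nor Dancr, described above with a smaller p than any listed RNA. The brightest on the list were Peg13, an imprinted RNA, at a mean of 6.02, Pantr1 at 5.50, Zfas1 at 3.48, Snhg11 at 3.44, Meg3, a maternally expressed imprinted RNA, at 3.43 and Snhg6 at 3.32. Snhg3, a host of small nucleolar RNAs, had the smallest p of the list: it read 0.63, 0.63 and 0.60 on KI and 0.90, 1.27 and 0.95 on WT arrays (difference -0.42, SE 0.13, unadjusted p = 0.0155, adjusted p = 0.447). Ftx, a neighbour of Xist that takes part in X inactivation, read -3.95, -4.12 and -4.09 on KI and -3.49, -3.18 and -3.87 on WT arrays. Crnde's own target was kept through the KI arrays alone, and its KI mean was 1.36-fold above the edge of detection on the WT arrays. Its KI minus WT difference had an adjusted p of 0.465 by limma, with overlapping groups. The kept targets of the loci that hold Crnde differed by only 0.05 to 0.16, also with overlapping groups. Snhg5 differed by 1.00 with overlapping groups, and Mir99ahg, Mir22hg and Snhg6 differed by 0.31, -0.36 and -0.20.

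One named noncoding RNA varied far more than the rest, and it did so within both groups. Six3os1, transcribed antisense to the homeobox gene Six3, read -0.71, -2.89 and -6.36 on KI and -0.96, -7.16 and -7.35 on WT arrays. The 6 striatal markers followed, Six3 among them, had mean deviations of 2.23, 0.71 and -0.99 on KI and 1.56, -1.78 and -1.74 on WT arrays, the same order of KI1 and WT1 above KI2 above KI3. In bulk samples fewer cells of a type and less RNA per cell cannot be told apart. Neuronal and synaptic markers, 8 of 8 kept at levels from 3.51 to 7.11, had a mean deviation over the list within 0.06 of 0 on every array, and all 4 oligodendrocyte and 4 astrocyte markers were kept too, so that the preparations held RNA of glia as well. Fmr1, the gene of the series title, read 2.08, 2.24 and 2.27 on KI and 1.42, 1.33 and 1.37 on WT arrays at its brightest target (difference 0.82, SE 0.10, adjusted p = 0.326 by limma). Its other kept targets differed by 0.45 and 0.39, also without overlap between the groups.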

How the data were processed

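Per the file headers, Agilent Feature Extraction 10.7.3.1 produced the deposited processed intensity of every spot, a linear value from which background is already removed. A second deposited table holds the authors' log2 values. Its column medians were 6.65 to 6.67 and its columns correlated with the scanner values at 0.995 to 0.997. This settles its scale and direction, but the sources used here do not give its normalization. It served as an alternative.

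Control spots were left out, log2 processed intensities were scaled by each array's 75th percentile over non-control spots, and spots of 1 target were averaged. Targets marked well above background on at least 3 of 6 arrays were kept. KI and WT were compared over all kept targets with limma 3.58.1 (lmFit, eBayes, two-sided, Benjamini-Hochberg, threshold 0.05) in R 4.3.3, tested on simulated data. Alternatives were normexp background correction, quantile and median scaling, other filters, the slide or replicate number as a block, other moderation, the brightest target per name and each array left out. Of the members, 16063 lay inside their locus and 118 had no mapped position. Gene symbols came from RefSeq (GRCm38.p6, names only). Neighbours are targets with an NM or NR accession. The number of arrays limits the precision. The members and lists were chosen with earlier results of these data known.

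Named were the target past the threshold, the 8 largest differences of each direction without overlap (unadjusted p under 0.05, marked on all 3 arrays of a group), the 10 brightest, 6 strand pairs of each kind (1 per locus, sharing at least 30 bases), and the nearest named genes. 2 of these targets are not reported here in full. Of the listed noncoding RNAs, the 8 of smallest p and the 6 brightest were named.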

Additional observations from a re-analysis of the deposited data

How the results depend on the processing

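The count of 1 lincRNA target past the threshold became 0 with normexp background correction, without a filter, with targets marked on all 6 arrays and in the authors' value table, became 4 with the slide as a fixed block, where WT3 is the only wild-type array in the contrast, and was 0 to 2 when 1 array was left out (0 without KI1, WT1, WT2 or WT3, and 2 without KI2). In the slide block the called target was lost and 4 others, all with WT3 high alone, were called, 2 of them not named above: chr12:77544397-77564122 and chr7:134620707-134626739. The count of 940 targets without overlap became 1843 with normexp, 7462 without a filter, and 451 over the brightest target of each of 2295 names, and ran from 1144 to 1730 with 1 array left out (1659 without KI3, 1690 without WT1, 1730 without WT3), since fewer arrays separate more easily. The median difference of -0.10 became -0.21 with normexp and -0.27 without a filter, kept its sign under all alternatives run, and ran from -0.14 to -0.08 with 1 array left out. The count of detected targets, 4668, became 8158 under the weaker mark of a signal positive and significant, and that of pairs detected on both strands rose from 139 to 421. The median of NM over lincRNA targets, 5.42 log2 units over all targets, was 2.31 with normexp, 3.29 over kept targets and 3.20 in the authors' table. The median strand gap of 2.44 was 1.57 with normexp and 1.77 in the authors' table. No strand pair passed in any setting run (0 to 0 with 1 array left out, lowest adjusted p 0.0911 without WT3). The cause of these changes was not tested. The 16 named targets kept their direction in all 253 combinations with an alternative. They were chosen for groups that did not overlap, so leaving out an array or blocking by slide or replicate number could not reverse them. This count is therefore no support for them. The replicate block gave 0 lincRNA calls, against 1 without it, a median difference of -0.10 and 0 strand pairs. Same-numbered arrays deviated together at 0.364 for number 1, -0.0387 for number 2 and 0.217 for number 3, so the numbers were not taken as pairs. With 3 arrays per group and signals this near background, differences of dim targets rest on the detection mark of single spots.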
